A study of Drosophila melanogaster with 12 samples.

Results

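RNA from heads of flies carrying either of the 2 ND-75 RNAi transgenes was compared, as 1 group of 8 libraries, with 4 control libraries. All 12 libraries of the series take part. Control flies were *Tub-Gal80ts;nSyb-Gal4* hemizygotes, obtained by crossing the driver to w[1118] according to the labels (nSybGal4/w[1118]). The knockdown flies carried the same driver with KK108222, a long hairpin named ND-75 weak RNAi in the labels and ND-75 KDweak here, or with HMS00853, a short hairpin named ND-75 strong RNAi and called ND-75 KDstrong here. Each genotype had 4 libraries, each made from 20 heads (10 male and 10 female) of 2-day-old flies. The labels do not mention *Tub-Gal80ts*, which the study's methods place in all 3 genotypes. *nSyb-Gal4* is active in neurons, whereas whole heads contain other tissue besides (glia, photoreceptors, muscle, fat body, cuticle). No control RNAi line was among the samples, so the effect of losing *ND-75* cannot be told apart from that of expressing a hairpin or from that of the strain backgrounds of the RNAi lines. In whole heads, fewer cells of a type and less RNA per cell cannot be told apart either.

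*ND-75* is the fly orthologue of NDUFS1, the iron-sulphur subunit of the NADH-oxidising arm of mitochondrial complex I. Complex I passes electrons from NADH to ubiquinone and pumps protons, and its loss in neurons slows NADH reoxidation and can set off transcriptional stress responses in flies. The comparison asks which features moved the same way with both hairpins.

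Read totals were 20072771 to 30321577 per library in controls, 19309456 to 32441604 in ND-75 KDweak and 22034203 to 34169998 for ND-75 KDstrong. Levels are given as CPM, read counts scaled to a common library size with TMM, a correction for library composition. A feature counted as called when the adjusted p of edgeR's quasi-likelihood test was under 0.05. Control replicate 3 stood farthest from its own genotype, with a mean distance of 76.7 on log2 CPM against 53.8 to 58.3 for the other controls, and had reads for 12966 features against 13729 to 14967 in the rest. ND-75 KDweak replicate 2 and ND-75 KDstrong replicate 4 were the farthest of their genotypes, at 62.1 and 67.1. The markers of neurons, glia, photoreceptors, fat body, muscle, hemocytes and gut had reads in every library except 1 muscle and 1 gut marker that were at 0 somewhere, and 0 of the 40 tested markers were called by edgeR (12 at an unadjusted p under 0.05, and 1 each by DESeq2 and limma voom, the fat body marker *Lsp2*).

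The targeted gene was lower in both knockdowns but just missed the threshold of the pooled test. *ND-75* (FBgn0017566) stood at 716, 852, 1380 and 832 CPM in the 4 controls, at 641, 665, 617 and 564 in ND-75 KDweak and at 548, 537, 453 and 639 for ND-75 KDstrong. All 8 knockdown libraries lay below all 4 controls. The pooled log2 fold change was -0.70 (SE 0.16, edgeR adjusted p = 0.0578), and the exact permutation test of 8 libraries against 4 gave p = 0.00404 (two-sided), the smallest that 495 splits allow. Without control replicate 1 the gene was called (adjusted p = 0.0408), and without control replicate 3, the highest library, the log2 fold change was -0.44 (adjusted p = 0.167). It was also called by DESeq2 and limma voom (adjusted p = 0.00432 and 0.0243), by the 3-genotype contrast (0.026) and with a gene length trend removed (0.0443). By edgeR it was not called with a replicate block (0.215) or without any single library other than control replicate 1 (0.0693 to 0.167). Neither own comparison called it, with log2 fold changes of -0.59 in ND-75 KDweak (edgeR adjusted p = 0.116) and -0.79 for ND-75 KDstrong (0.117). The RNAi acts in neurons only, and the *ND-75* mRNA of the other head cells was counted with theirs.

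Of 10830 features tested, 72 were higher (0.665%) and 52 lower (0.48%) in the pooled knockdowns than in control, and 1387 had an unadjusted p under 0.05. All 124 moved in the same direction with either hairpin when the 3 genotypes were fitted apart, which a pooled test against shared controls largely requires of the features it calls. The higher features comprised 59 genes that encode proteins, 8 insertions of transposable elements and 5 noncoding RNAs. The lower ones comprised 42 protein-coding genes, 5 insertions, 4 noncoding RNAs and 1 pseudogene. The median log2 fold change was 1.98 among the higher features (0.50 to 7.89) and -1.52 among the lower (-5.65 to -0.48). In 70 of the 72 higher features every knockdown library lay above every control, which held for 1.31% of all features tested, and in 49 of the 52 lower ones every knockdown library lay below every control (1.19%). Most shared features were expressed at low levels, with a median of 4.66 CPM over the 12 libraries against 19.4 for all features tested. Of the 124, 53 overlap another annotated feature, and not every such overlap is named below.

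Many of these calls were lost when 1 library was left out, and more when it was a control, the smaller group. Omitting 1 of the 4 controls kept 79 to 88 of the 124 calls, and omitting 1 of the 8 knockdown libraries kept 100 to 114. With control replicate 4 left out, 46 features were higher and 34 lower, and with control replicate 3 left out, 61 and 30. With DESeq2 in place of edgeR, 234 were higher and 114 lower, and all 124 were among them. Limma voom turned the balance, with 151 higher and 171 lower, and the mean contrast of the 3 genotypes gave 186 and 171. A total of 65 of the 124 features (41 higher and 24 lower) were called whichever single library was omitted. Of the 124, 82 were also called in each knockdown's own comparison with control, 33 in ND-75 KDweak alone, 5 in ND-75 KDstrong alone and 4 in neither. A feature that the filter on low counts removed from an own comparison was not tested there and counts as not called. Among such features were *Cyp6a19*, *Ugt37A2* and FBti0018871 in ND-75 KDweak, *slmo*, lncRNA:CR46350 and RR48361_transposable_element for ND-75 KDstrong, and FBti0018969 in each. Both comparisons share the control libraries. On their own, ND-75 KDweak had 267 higher and 414 lower features (2.56% and 3.98% of those tested) and ND-75 KDstrong 187 and 62 (1.78% and 0.589%). The pooled features thus held 25.1% of the higher and 11.6% of the lower features of ND-75 KDweak, and 27.3% and 58.1% of those of ND-75 KDstrong. A further 5 features called in both own comparisons were not called in the pooled test: *CG1673*, *Uhg1*, FBti0062856 and RR48383_transposable_element were higher and *CG14642* was lower.

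**Figure D1:**
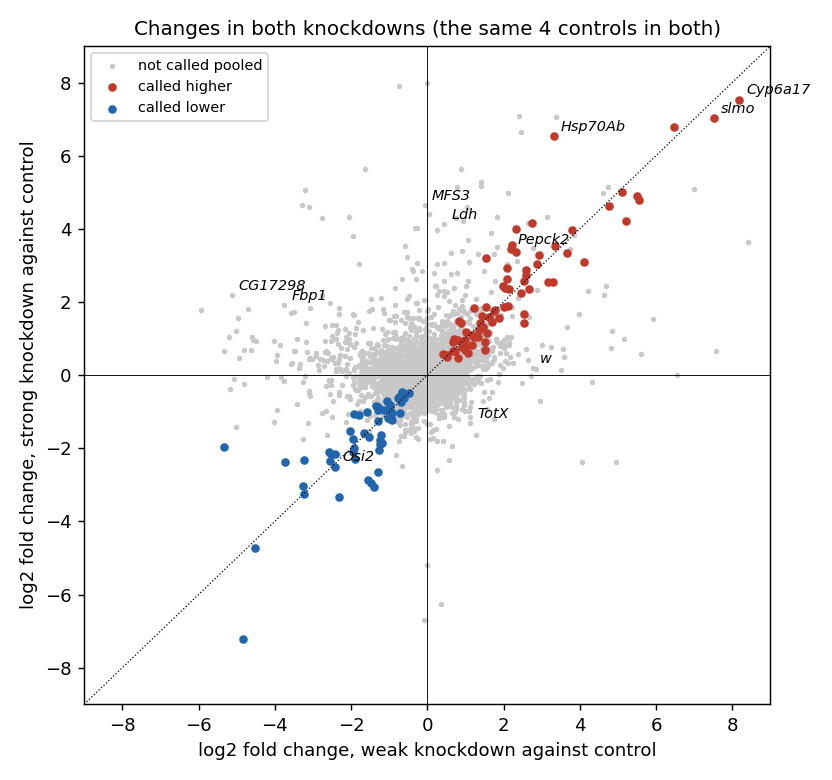
Log2 fold change of each of the 10830 features tested in ND-75 KDweak (x axis) and in ND-75 KDstrong (y axis), each against the same 4 controls. Red points are the 72 features called higher and blue points the 52 called lower with both knockdowns pooled, and these moved in the same direction in both knockdowns, whereas *MFS3*, *Ldh*, *w* and *Fbp1* lie off the dotted line of equal change.

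By edgeR, the list of cytochrome P450 genes held more called genes than any other list examined (6), although not the highest share, and DESeq2 called more chemosensory genes (13) than P450 genes (10). P450 enzymes are haem monooxygenases that oxidise xenobiotics, steroids and fatty acids. Of the 78 tested, 6 were higher and 0 lower (7.69% called, against 1.14% of all features), while the median log2 fold change of the 78 was 0.022, against -0.005 for all features. Limma voom called 9 of the 78. The largest change of the pooled comparison was that of *Cyp6a17* (FBgn0015714, chromosome 2R, 14873953 to 14875739), a P450 needed for normal temperature preference in flies. It was almost silent in controls, at 0.294, 0.0803, 0.0786 and 0.315 CPM. It reached 59.0, 42.8, 67.9 and 60.3 CPM in ND-75 KDweak and 38.1, 31.9, 35.7 and 41.1 for ND-75 KDstrong. Every knockdown library thus lay far above every control, a log2 fold change of 7.89 (SE 0.40, adjusted p = 1.48e-07). The rise was larger in ND-75 KDweak than in ND-75 KDstrong (log2 difference -0.64, SE 0.15, adjusted p = 0.0186).

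*Cyp309a2* (FBgn0041337, chromosome 2L, 2564886 to 2573037) had 7.10, 5.54, 3.38 and 3.11 CPM in controls, 35.9, 27.6, 40.7 and 40.4 in ND-75 KDweak and 36.8, 31.0, 46.3 and 69.2 for ND-75 KDstrong. The groups were well apart and both knockdowns were alike in level, with a log2 fold change of 3.11 (SE 0.30, adjusted p = 6.73e-05). *Cyp12d1-p* (FBgn0050489, chromosome 2R, 11117225 to 11121884), a P450 of the mitochondrial clan that xenobiotics induce, had 4.80, 4.34, 1.34 and 3.68 CPM in controls, 37.2, 49.5, 48.2 and 45.0 in ND-75 KDweak and 38.2, 20.5, 25.4 and 58.5 for ND-75 KDstrong. Again all knockdown libraries exceeded all controls (log2 fold change 3.51, SE 0.37, adjusted p = 0.000135). *Cyp12d1-p* has a near-identical neighbour copy, *Cyp12d1-d*, between which reads can be split, so its level is uncertain.

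The other 3 P450 genes were expressed less or moved less. *Cyp6d2* rose from 0.454 ± 0.174 (SD, n = 4) to 2.60 ± 0.672 CPM (n = 8), a log2 fold change of 2.51 (SE 0.31, adjusted p = 0.000523). *Cyp6a19*, which lies beside *Cyp6a17* on 2R, rose from 0.151 ± 0.0897 to 0.968 ± 0.369 CPM (log2 fold change 2.66, SE 0.46, adjusted p = 0.00914). *Cyp12a5* rose from 9.61 ± 1.46 to 21.3 ± 7.01 CPM (log2 fold change 1.15, SE 0.25, adjusted p = 0.0412) and moved further in ND-75 KDweak (25.0 to 31.3 CPM) than in ND-75 KDstrong (12.9 to 20.8 CPM, log2 difference -0.81, adjusted p = 0.00864). The call of *Cyp12a5* was lost when any 1 of the 4 controls, any 1 of the 4 ND-75 KDweak libraries or ND-75 KDstrong replicate 4 was omitted (adjusted p up to 0.158). The calls of the other 5 P450 genes held whichever library was left out. *Cyp6d2* overlaps *nsr* and *Cyp6a19* overlaps *Cyp6a9*, each on the opposite strand, and reads of such pairs cannot be told apart in these libraries, which did not keep strand.

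Conjugating enzymes add a sugar or glutathione to oxidised compounds. Of 57 glutathione S-transferases and UDP-glycosyltransferases tested, 2 were higher and 0 lower (3.51%), and both are UDP-glycosyltransferases that adjoin each other on 3R (4 were called by DESeq2 and 3 by limma voom). *Ugt37A3* (FBgn0038083) had 15.3, 20.1, 12.8 and 15.3 CPM in controls, 68.4, 51.5, 78.0 and 61.2 in ND-75 KDweak and 34.4, 57.8, 102 and 140 for ND-75 KDstrong. No knockdown library reached down to the controls, although the ND-75 KDstrong libraries were widely spread (log2 fold change 2.22, SE 0.33, adjusted p = 0.00222). *Ugt37A2* rose from 0.142 ± 0.104 to 0.771 ± 0.362 CPM (log2 fold change 2.39, SE 0.53, adjusted p = 0.0465), with a highest control of 0.281 and a lowest knockdown library of 0.263 CPM. Its call was kept in 3 of the 12 leave-one-out fits and lost without control replicate 1, 3 or 4, without ND-75 KDweak replicate 1, 3 or 4 and without ND-75 KDstrong replicate 2, 3 or 4 (adjusted p up to 0.178). Of 17 antioxidant enzymes 0 were called by edgeR, DESeq2 or limma voom, and 0 had an unadjusted p under 0.05.

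The inducible Hsp70 chaperones bind unfolded proteins, and 2 of their copies were higher. Of 24 heat shock and chaperone genes 2 were called higher (8.33%), 13 were higher at an unadjusted p under 0.05, and the median log2 fold change was 0.75. *Hsp70Bb* (FBgn0013278) had 1.81, 2.25, 2.28 and 2.17 CPM in controls, 12.1, 51.0, 11 and 12.8 in ND-75 KDweak and 12.9, 21.6, 24.8 and 38.9 for ND-75 KDstrong. All knockdown libraries were above the controls, and ND-75 KDweak replicate 2 was the highest of all (log2 fold change 3.43, SE 0.48, adjusted p = 0.00135). *Hsp70Ab* (FBgn0013276), which overlaps *CG3281*, had 0.196, 0.241, 0.668 and 0.315 CPM in controls, 1.47, 10.6, 1.21 and 1.78 in ND-75 KDweak and 9.12, 39.9, 36.6 and 49.0 for ND-75 KDstrong. It rose in both (log2 fold change 5.68, SE 1.27, adjusted p = 0.0487) and rose further in ND-75 KDstrong (log2 difference 3.24, adjusted p = 0.0176).

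The *Hsp70Ab* call was lost without any 1 of the controls, any 1 of the ND-75 KDstrong libraries or ND-75 KDweak replicate 2 (adjusted p up to 0.169), while that of *Hsp70Bb* held throughout. The list had 1 called gene without any of those 9 libraries and 6 without ND-75 KDweak replicate 3, and it had 9 with DESeq2 and 1 with limma voom. The remaining Hsp70 copies were not called. *Hsp70Aa* had an adjusted p of 0.1, *Hsp70Ba* and *Hsp70Bbb* 0.11 each, and *Hsp70Bc* 0.0713, with pooled log2 fold changes of 6.18, 3.61, 2.80 and 2.65. The Hsp70 copies are near-identical, so the share of reads given to each is uncertain.

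Single enzymes of metabolism were among the higher features. *Pepck2* (FBgn0034356, chromosome 2R, 18527430 to 18535749) encodes phosphoenolpyruvate carboxykinase, which makes phosphoenolpyruvate from oxaloacetate. It had 12.8, 13.0, 19.8 and 8.74 CPM in controls, 62.7, 49.4, 70.7 and 64.9 in ND-75 KDweak and 172, 127, 127 and 164 for ND-75 KDstrong. The 3 genotypes did not overlap and stood in that order (log2 fold change 2.95, SE 0.40, adjusted p = 0.00112), and the step from ND-75 KDweak to ND-75 KDstrong was itself called (1.26 on the log2 scale, adjusted p = 0.00053). *Hmgs*, the HMG-CoA synthase of the mevalonate pathway, had 53.4, 52.0, 55.3 and 49.4 CPM in controls, 70.9, 70.3, 65.0 and 70.9 in ND-75 KDweak and 78.2, 71.7, 78.3 and 88.0 for ND-75 KDstrong. This was a small shift with little spread (log2 fold change 0.50, SE 0.10, adjusted p = 0.0205).

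*Lsd-2*, a perilipin that coats lipid droplets, was the 1 called gene of 20 for lipid breakdown and storage (5%, list median log2 fold change 0.40), where DESeq2 called 5 and limma voom 4. It had 331, 388, 238 and 267 CPM in controls, 619, 661, 499 and 631 in ND-75 KDweak and 430, 445, 562 and 538 for ND-75 KDstrong. The lowest knockdown library lay just above the highest control (log2 fold change 0.84, SE 0.16, adjusted p = 0.0178). *LManII*, a lysosomal alpha-mannosidase, rose from 257 ± 53.8 to 476 ± 94.1 CPM (log2 fold change 0.89, SE 0.18, adjusted p = 0.0286), and *Mal-B1*, a maltase, from 6.89 ± 0.548 to 12.4 ± 3.17 CPM (log2 fold change 0.85, SE 0.18, adjusted p = 0.0412). The call of *Hmgs* was lost without control replicate 1, 2 or 4 (adjusted p up to 0.105) and that of *Lsd-2* without control replicate 1, 3 or 4 (up to 0.0949). *LManII* lost its call without any 1 of the controls or ND-75 KDweak replicate 1, 3 or 4, and *Mal-B1* without any 1 of the controls, ND-75 KDweak replicate 2 or 4, or ND-75 KDstrong replicate 3 or 4 (adjusted p up to 0.0881 and 0.137). *Hmgs* overlaps *Vha44* and *Mal-B1* overlaps *Pde1c*, each on the opposite strand.

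*fit*, a fat body gene whose product acts in satiety, was the 1 gene called of 14 fat body genes and is also female-biased. It had 40.2, 43.7, 39.0 and 27.6 CPM in controls, 203, 100, 133 and 176 in ND-75 KDweak and 91.0, 72.7, 51.5 and 333 for ND-75 KDstrong. All knockdown libraries were above the controls, and ND-75 KDstrong replicate 4 stood far above its group (log2 fold change 1.95, SE 0.44, adjusted p = 0.0489). The call was lost without any 1 of the controls or any 1 of the ND-75 KDweak libraries (adjusted p up to 0.173). Of the 7 fat body markers 0 were called and 0 were at 0 in any library, and their summed level was 34600 to 41500 CPM in controls, 50800 to 72100 in ND-75 KDweak and 27900 to 68300 for ND-75 KDstrong. The median log2 fold change of the 14 fat body genes was 0.84, and its part in the result for *fit* was not tested.

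**Figure D2:**
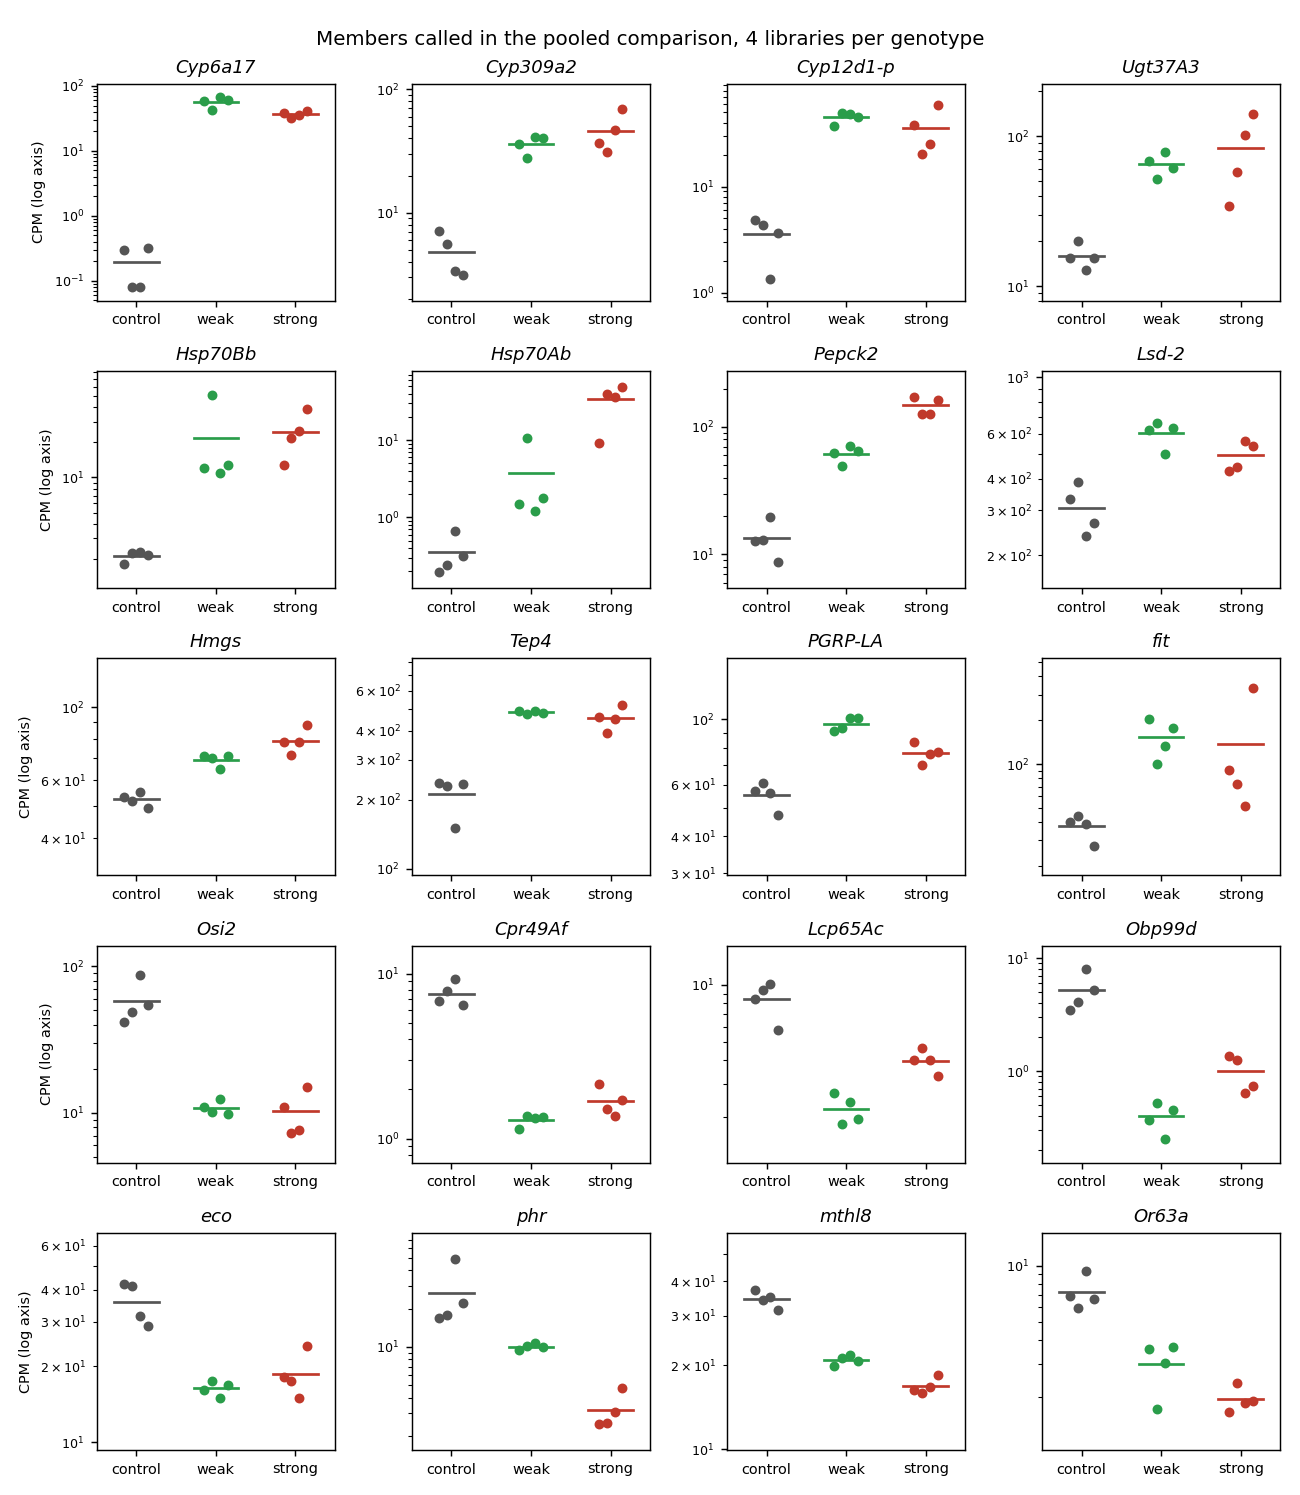
CPM in each library, on log axes, for 20 shared genes. Each point is 1 library (grey control, green ND-75 KDweak, red ND-75 KDstrong) and each bar the mean of 4. The 8 knockdown points lie above the 4 control points in each panel from *Cyp6a17* to *fit* and below them in each panel from *Osi2* to *Or63a*.

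*Tep4* (FBgn0041180, chromosome 2L, 19548507 to 19556451), a secreted thioester protein of the humoral response, had 236, 231, 150 and 235 CPM in controls, 491, 475, 487 and 478 in ND-75 KDweak and 459, 390, 453 and 519 for ND-75 KDstrong. The knockdown libraries formed a narrow band above the controls (log2 fold change 1.14, SE 0.14, adjusted p = 0.000497). *PGRP-LA*, a peptidoglycan recognition protein, had 57.2, 61.0, 56.0 and 47.2 CPM in controls, 91.7, 93.5, 101 and 101 in ND-75 KDweak and 83.9, 70.0, 76.1 and 77.7 for ND-75 KDstrong (log2 fold change 0.65, SE 0.13, adjusted p = 0.0172). It was the 1 called gene of 27 for peptidoglycan recognition and immune signalling (3.7%), and the call was lost without control replicate 1 or 4 (adjusted p up to 0.0934). *Irc*, the immune-regulated catalase, rose from 215 ± 30.8 to 311 ± 27.5 CPM (log2 fold change 0.53, SE 0.12, adjusted p = 0.0391), with no overlap of the groups, and its call was kept in 2 of the 12 leave-one-out fits (those without control replicate 1 and without ND-75 KDstrong replicate 2). Of 31 antimicrobial peptide and Bomanin genes 0 were called by edgeR (3 at an unadjusted p under 0.05, and 1 each by DESeq2 and limma voom), with a median log2 fold change of -1.48 in ND-75 KDweak and 0.35 for ND-75 KDstrong. In the own comparison of ND-75 KDweak 10 of the 31 were called lower and 2 higher, and the knockdowns had opposite signs for 20.

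The higher features *eIF2Bdelta*, *sfl* and *dpr21* were picked for their described roles after their values were seen. Of 84 genes for cytoplasmic ribosomal proteins, 0 were called by edgeR, DESeq2 or limma voom, and 0 had an unadjusted p under 0.05. *eIF2Bdelta*, a subunit of the factor that recharges the initiation factor eIF2 with GTP, had 19.1, 20.2, 18.7 and 20.2 CPM in controls, 25.5, 30.0, 28.9 and 27.0 in ND-75 KDweak and 27.8, 25.2, 28.2 and 28.7 for ND-75 KDstrong. The shift was small and the spread within groups smaller still (log2 fold change 0.50, SE 0.09, adjusted p = 0.00994). *crc*, the fly ATF4, translated when eIF2 is phosphorylated, was not called (log2 fold change 0.12, adjusted p = 0.718), and of 15 ATF4-linked genes 0 were called by edgeR (3 at an unadjusted p under 0.05, and 2 each by DESeq2 and limma voom). *sfl*, which modifies heparan sulphate chains, rose from 45.1 ± 10.1 to 71.2 ± 2.89 CPM (log2 fold change 0.66, SE 0.12, adjusted p = 0.0158, and 0.0646 without control replicate 1). *dpr21*, an immunoglobulin-domain surface protein, rose from 16.4 ± 2.97 to 31.9 ± 2.03 CPM (log2 fold change 0.96, SE 0.12, adjusted p = 0.00072). *eIF2Bdelta* overlaps *CG3530* on the opposite strand.

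Among the lower features, *rl* encodes the fly ERK kinase, and *aos* encodes Argos, a secreted inhibitor of signalling. *rl* had 82.5, 73.1, 88.2 and 56.0 CPM in controls, 46.5, 44.1, 44.5 and 46.4 in ND-75 KDweak and 51.3, 54.8, 49.3 and 44.3 for ND-75 KDstrong. The lowest control lay just above the highest knockdown library (log2 fold change -0.65, SE 0.12, adjusted p = 0.0106, and 0.0512 without control replicate 1). *aos*, which overlaps *CG33158*, fell from 42.8 ± 7.39 to 29.1 ± 3.06 CPM (log2 fold change -0.56, SE 0.12, adjusted p = 0.0371). The groups of *aos* overlapped, and its call was kept in 3 of the 12 leave-one-out fits (without control replicate 4, or without ND-75 KDstrong replicate 1 or 2). *AstC-R1*, a receptor of the neuropeptide allatostatin C, fell from 10.1 ± 3.05 to 5.15 ± 0.842 CPM (log2 fold change -0.98, SE 0.19, adjusted p = 0.0163), a call lost without control replicate 1 or 4 (adjusted p up to 0.0985). *mthl8*, a receptor of the Methuselah family, had 37.2, 34.2, 35.2 and 31.5 CPM in controls, 19.8, 21.2, 21.7 and 20.6 in ND-75 KDweak and 16.3, 15.9, 16.7 and 18.5 for ND-75 KDstrong. Here the 3 genotypes did not overlap (log2 fold change -0.87, SE 0.11, adjusted p = 0.000648), and the step between the knockdowns was not called (-0.29, adjusted p = 0.0828).

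The next 4 genes were picked from the lower features for their described roles after their values were seen. *eco*, the acetyltransferase of sister chromatid cohesion, had 42.1, 41.4, 31.7 and 28.8 CPM in controls, 16.1, 17.4, 14.9 and 16.8 in ND-75 KDweak and 18.1, 17.5, 15 and 23.9 for ND-75 KDstrong. All knockdown libraries were lower (log2 fold change -1.04, SE 0.14, adjusted p = 0.00114). *mre11*, a nuclease of double-strand break repair, fell from 32.9 ± 10.0 to 17.6 ± 3.16 CPM (log2 fold change -0.90, SE 0.17, adjusted p = 0.0158, and 0.0636 without control replicate 3). *esc*, a subunit of the Polycomb complex that methylates histone H3, fell from 11.9 ± 2.10 to 5.70 ± 1.68 CPM (log2 fold change -1.07, SE 0.21, adjusted p = 0.0222). *Cks30A*, a subunit of cyclin-dependent kinase complexes, fell from 1.99 ± 0.376 to 0.654 ± 0.249 CPM (log2 fold change -1.61, SE 0.31, adjusted p = 0.0159). The call of *esc* was lost without control replicate 2, 3 or 4 or ND-75 KDweak replicate 2, and that of *Cks30A* without control replicate 1, 2 or 4 (adjusted p up to 0.11 and 0.0932). *CG6654* (FBgn0038301, chromosome 3R, 15211277 to 15213658) had the smallest p of all lower features, with 26.7, 26.6, 34.4 and 34.4 CPM in controls, 10.2, 9.72, 9.77 and 9.01 in ND-75 KDweak and 11.9, 10.7, 8.66 and 9.74 for ND-75 KDstrong. The knockdown libraries were tightly grouped, from 8.66 to 11.9 CPM, with no control under 26.6 (log2 fold change -1.62, SE 0.11, adjusted p = 5.31e-06). *eco* overlaps *lark*, *CG6654* overlaps *Mau2* and *mre11* overlaps *Osi21*, all on opposite strands, and *esc* overlaps *Pde1c* on the same strand.

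The photolyases, which repair ultraviolet lesions in DNA by light, moved in opposite directions. *phr6-4*, specific for 6-4 photoproducts, rose from 0.098, 0.241, 0.197 and 0.0315 CPM in controls to 1.06, 0.736, 0.405 and 0.699 in ND-75 KDweak and 1.75, 1.21, 1.23 and 1.63 for ND-75 KDstrong (log2 fold change 2.93, SE 0.53, adjusted p = 0.0108). *phr*, specific for cyclobutane dimers, stood at 17, 17.7, 49.4 and 22.1 CPM in controls, 9.48, 10.1, 10.7 and 9.92 in ND-75 KDweak and 2.48, 2.54, 3.06 and 4.74 for ND-75 KDstrong. *phr* was thus lower in both knockdowns without overlap (log2 fold change -2.01, SE 0.43, adjusted p = 0.0379) and lowest in ND-75 KDstrong (log2 difference -1.64, adjusted p = 0.000821). The call of *phr6-4* was lost without control replicate 1 (adjusted p = 0.0512). That of *phr* was lost without any 1 of the controls or ND-75 KDstrong replicate 3 or 4 (adjusted p up to 0.226, without control replicate 3, the highest control). *phr* overlaps the proteasome gene *Prosalpha1* on the opposite strand.

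Among cuticle proteins 1 gene was higher and 2 were lower, of 55 tested (5.45%). *Cpr49Af* (FBgn0033729), a chitin-binding cuticle protein, had 6.81, 7.83, 9.24 and 6.42 CPM in controls, 1.15, 1.37, 1.34 and 1.36 in ND-75 KDweak and 2.16, 1.51, 1.37 and 1.71 for ND-75 KDstrong. The fall was similar in both knockdowns (log2 fold change -2.33, SE 0.17, adjusted p = 8.74e-06). *Lcp65Ac* had 8.38, 9.36, 10.1 and 5.79 CPM in controls, 2.67, 1.84, 2.40 and 1.96 in ND-75 KDweak and 4.00, 4.65, 3.99 and 3.30 for ND-75 KDstrong. It fell further in ND-75 KDweak (pooled log2 fold change -1.43, SE 0.25, adjusted p = 0.00807, log2 difference 0.86, adjusted p = 0.016). *Ccp84Ag* rose from 8.73 ± 3.04 to 25.2 ± 6.31 CPM (log2 fold change 1.53, SE 0.24, adjusted p = 0.00422). *Osi2* (FBgn0037410), of the Osiris family of membrane proteins, many of which are made in cells that lay down cuticle, had 41.8, 48.6, 86.7 and 54.8 CPM in controls, 10.9, 10.2, 12.5 and 9.82 in ND-75 KDweak and 11, 7.33, 7.69 and 15 for ND-75 KDstrong. It was 5.49-fold lower in the knockdowns without overlap (log2 fold change -2.46, SE 0.20, adjusted p = 1.95e-05).

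Chemosensory genes were called in both directions, 2 higher and 2 lower of 82 tested (4.88%), where DESeq2 called 13 and limma voom 8 in all. *Obp99d*, an odorant-binding protein, had 3.48, 4.06, 8.10 and 5.19 CPM in controls, 0.368, 0.525, 0.249 and 0.454 in ND-75 KDweak and 1.37, 1.25, 0.643 and 0.738 for ND-75 KDstrong. It fell in both (log2 fold change -2.88, SE 0.38, adjusted p = 0.000959), and further in ND-75 KDweak (log2 difference 1.35, adjusted p = 0.0389). *Or63a*, an odorant receptor, fell from 7.21 ± 1.49 to 2.48 ± 0.844 CPM (log2 fold change -1.54, SE 0.24, adjusted p = 0.00339). *Ir76a*, an ionotropic receptor, rose from 2.35 ± 0.428 to 5.05 ± 0.967 CPM (log2 fold change 1.11, SE 0.20, adjusted p = 0.00999) and *CheB53a* from 0.286 ± 0.137 to 0.964 ± 0.221 CPM (log2 fold change 1.72, SE 0.33, adjusted p = 0.0166). The call of *Ir76a* was lost without control replicate 4 (adjusted p = 0.0573) and that of *CheB53a* without control replicate 1, 2 or 4 (up to 0.09). The sodium channel subunit *ppk19*, which takes part in salt taste, rose from 0.168 ± 0.137 to 1.13 ± 0.435 CPM (log2 fold change 2.73, SE 0.50, adjusted p = 0.012), a call lost without control replicate 1 or 4 (up to 0.0743). *ppk19* overlaps *Bub3* and *Ir76a* overlaps *CG14102*, each on the opposite strand.

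Several uncharacterised genes were among those with the smallest p. *CG4914* (FBgn0036436) rose from 1.31 ± 0.224 to 6.28 ± 1.30 CPM (log2 fold change 2.26, SE 0.21, adjusted p = 6.43e-05). *CG18343* rose from 5.12 ± 1.00 to 20.6 ± 4.55 CPM (log2 fold change 2.01, SE 0.20, adjusted p = 9.06e-05), *CG13793* from 1.80 ± 0.371 to 6.16 ± 0.974 CPM (log2 fold change 1.78, SE 0.19, adjusted p = 0.000161) and *CG33993* from 8.94 ± 1.09 to 20.6 ± 3.39 CPM (log2 fold change 1.2, SE 0.15, adjusted p = 0.000523). *CG1246* fell from 5.14 ± 0.496 to 0.537 ± 0.299 CPM (log2 fold change -3.24, SE 0.35, adjusted p = 0.000168) and *CG31036* from 16.9 ± 4.39 to 6.42 ± 1.10 CPM (log2 fold change -1.40, SE 0.17, adjusted p = 0.000497). These 6 kept their calls in all 12 leave-one-out fits, and *CG4914* overlaps *ome* and *CG1246* overlaps *ProRS-m*. *Pgant35A*, which starts the O-glycosylation of secreted proteins, fell from 1.54 ± 0.848 to 0.168 ± 0.0817 CPM (log2 fold change -3.14, SE 0.42, adjusted p = 0.00106), and *CG34462* from 0.978 ± 0.520 to 0.0320 ± 0.0482 CPM (log2 fold change -4.63, SE 0.65, adjusted p = 0.00152).

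A number of features were on in one group and at or near 0 in the other. *slmo* (FBgn0029161, chromosome 2L, 6046516 to 6048706), whose product belongs to the PRELI family of mitochondrial proteins, had 0 reads in all 4 controls. It had 0.783, 0.578, 0.778 and 1.19 CPM in ND-75 KDweak and 0.672, 0.733, 0.590 and 0.388 for ND-75 KDstrong. Set against a floor of 3 reads over the control group, it was at least 24.5-fold higher in the knockdowns (159 reads in all, edgeR adjusted p = 0.000442). *slmo* overlaps *IPIP* on the opposite strand, so that its count may not stand for its whole transcript. *CG17217*, which overlaps *CG6583* on the opposite strand, had reads in 2 of the 4 controls (0.147 and 0.0315 CPM) and 0.646 to 2.16 CPM in the knockdowns (log2 fold change 5.21, SE 0.63, adjusted p = 0.000497). In 17 of the higher features every control library lay under 0.359 CPM, the level that the filter on low counts asked for, so that these were tested only because the knockdown libraries were above it, and 4 of the lower features were under it in every knockdown library.

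Transposable element insertions were counted one by one, and 8 were higher and 5 lower. The joined counts held 2754 insertions before the filter on low counts. How many of them were tested is not given here, so their called share cannot be set against the 1.14% of all features. FBti0019468 (chromosome 3R, 31330491 to 31335634, overlapping *CG34347*) had 0.098, 0.0402, 0.0393 and 0 CPM in controls, 1.38, 1.37, 1.59 and 1.75 in ND-75 KDweak and 1.46, 0.819, 1.58 and 1.79 for ND-75 KDstrong (log2 fold change 5.05, SE 0.48, adjusted p = 6.73e-05). FBti0019365 (chromosome 3R, 13135881 to 13138000, overlapping *timeout* and *2mit*) rose from 0.102 ± 0.0666 to 1.51 ± 0.361 CPM (log2 fold change 3.87, SE 0.38, adjusted p = 7.45e-05). FBti0018871 (chromosome 2R, 23914354 to 23921920, overlapping *kcc*) had 0 reads in all controls and 0.311 to 0.789 CPM in the knockdowns, at least 15.7-fold higher against the floor. These 3 were at similar levels in both knockdowns.

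FBti0020031 (chromosome 3L, 3601354 to 3606606, overlapping *Eip63E*) followed the 3 genotypes in steps, with 0.980, 1.16, 0.472 and 0.849 CPM in controls, 7.18, 5.52, 5.20 and 5.55 in ND-75 KDweak and 14.8, 17.7, 17 and 13.0 for ND-75 KDstrong (log2 fold change 3.63, SE 0.47, adjusted p = 0.000796). The difference between the knockdowns was 1.43 on the log2 scale (adjusted p = 0.000354). FBti0019110 did the same, from 1.28 ± 0.318 CPM in controls to 5.20 to 8.52 in ND-75 KDweak and 17.1 to 24.1 for ND-75 KDstrong (log2 difference 1.66, adjusted p = 0.000368). Of the lower insertions, FBti0019625 (chromosome X, 11312119 to 11319407) had 10.3, 6.35, 4.64 and 8.68 CPM in controls, 1.38, 1.21, 1.18 and 1.29 in ND-75 KDweak and 1.64, 1.47, 1.5 and 1.2 for ND-75 KDstrong (log2 fold change -2.45, SE 0.19, adjusted p = 1.38e-05). RR48405_transposable_element fell from 3.27 ± 0.678 to 0.841 ± 0.153 CPM and FBti0060499 from 2.3 ± 0.454 to 0.676 ± 0.292 (log2 fold changes -1.96 and -1.75), the latter not called without control replicate 4 (adjusted p = 0.0585). FBti0059664 had 70 reads in the controls and 2 in the knockdowns, a ratio of 75.8 (95% counting interval 20.2 to 638, counting error only). Copies of a transposable element share sequence, so reads of 1 insertion can come from another, and a reference insertion can be absent from a strain, so the assignment to a single insertion is uncertain.

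Noncoding RNAs added 5 higher and 4 lower features. There were 1626 of them before the filter on low counts, and their called share of those tested is likewise not given here. lncRNA:CR40469 (chromosome X, 122493 to 122706) had 0.098, 0.0402, 0.0786 and 0.0315 CPM in controls, 2.3, 1.94, 3.89 and 3.70 in ND-75 KDweak and 1.55, 1.68, 1.23 and 2.52 for ND-75 KDstrong. It was higher in every knockdown library (log2 fold change 5.21, SE 0.50, adjusted p = 6.73e-05). lncRNA:CR46350 had 1 read in the controls and 86 in the knockdowns, a ratio of 39.7 (95% counting interval 6.94 to 1590). Hairpin RNAs are folded transcripts that flies cut into endogenous small interfering RNAs, and 2 of them, hpRNA:CR32207 and hpRNA:CR33940 on 3L, were higher. hpRNA:CR32207 had 0.343, 0.803, 0.904 and 0.346 CPM in controls, 2.44, 1.52, 1.84 and 1.26 in ND-75 KDweak and 6.14, 4.35, 4.98 and 6.56 for ND-75 KDstrong (log2 fold change 2.60, SE 0.54, adjusted p = 0.0291), and the step between the knockdowns was 1.66 on the log2 scale (adjusted p = 0.00142). hpRNA:CR33940 rose from 4.69 ± 1.81 to 10.3 ± 2.26 CPM (log2 fold change 1.14, SE 0.23, adjusted p = 0.0272). Both calls were lost without control replicate 1, 2 or 4, that of hpRNA:CR32207 also without control replicate 3 or ND-75 KDstrong replicate 3, and that of hpRNA:CR33940 without ND-75 KDweak replicate 1 or 4 (adjusted p up to 0.126 and 0.136). *squ*, a gene of the piRNA pathway that silences transposable elements in the germline, rose from 0.284 ± 0.0535 to 1.29 ± 0.516 CPM (log2 fold change 2.17, SE 0.41, adjusted p = 0.0158), a call lost without control replicate 2, 3 or 4 (up to 0.0726). It overlaps *grp* on the same strand, and hpRNA:CR33940 overlaps *CG32212* on the opposite strand.

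Shared features were unevenly spread over the chromosomes. The X chromosome carried 5 of the 124, or 4.03%, whereas it carried 16.1% of the features tested, so that 0.287% of its features were called. The called share was 1.6% on 2L, 1.21% on 2R, 1.64% on 3L and 1.07% on 3R, and 0 of 259 features on chromosome 4 were called by edgeR (19 at an unadjusted p under 0.05, 3 by DESeq2 and 0 by limma voom). On 3L, 13 were higher and 21 lower, while on every other large autosomal arm the higher features were in the majority. Of the 124, 25 (20.2%) lay within 20 kb of another shared feature, against 6.33% of the other features tested. They formed 11 clusters. One held 4 features within 6137 bases of 2L, which were lower: lncRNA:CR45456, lncRNA:CR45457, *CG17005* and *Cks30A*, with log2 fold changes of -2.09, -2.05, -1.83 and -1.61. Other clusters were *Cyp6a17* with *Cyp6a19*, *Ugt37A2* with *Ugt37A3*, *CG13793* with *CG13794* and *CG18343* with *SkpB*, the last of which overlap on opposite strands. *slmo* (higher) and *CG9147* (lower) were neighbours that moved in opposite directions. In another mixed cluster *esc* (lower) lay near *Mal-B1* and *CG42751* (both higher). Whether strain-specific sequence at these places plays a part was not tested.

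**Figure D3:**
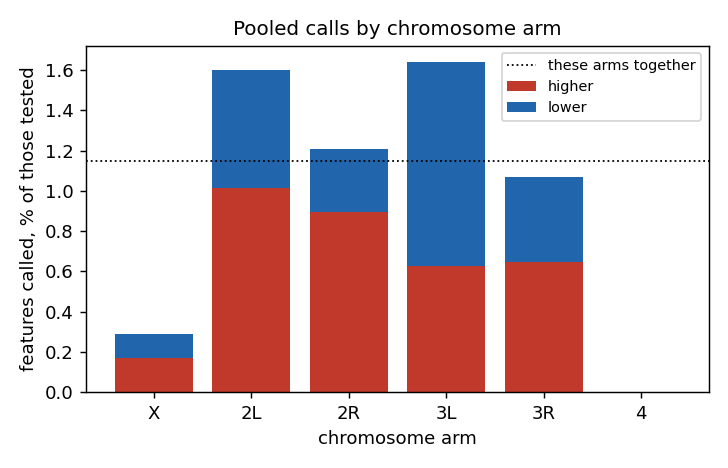
Features called with both knockdowns pooled, as a percentage of those tested on each chromosome arm, split into higher (red) and lower (blue). The dotted line is the share over these arms together. The X chromosome stands at 0.287% and chromosome 4 at 0, against 1.07% to 1.64% on the autosomal arms.

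The size of the change could be compared between the knockdowns for 119 of the 124 features in a test that did not use the controls. Of these, 14 (11.8%) differed, a share near that of all features tested between the knockdowns (11.3%). The pooled test counts a difference between the knockdowns as spread and so works against features that differ. The share is therefore no result about the shared features. Of the 14, 7 lay further from control in ND-75 KDstrong: *Pepck2*, *Hsp70Ab*, FBti0020031, FBti0019110, hpRNA:CR32207, *phr* and *CG17005*. The other 7 lay further in ND-75 KDweak: *Cyp6a17*, *Cyp12a5*, *CG14329*, *CG11961*, *Obp99d*, *Lcp65Ac* and lncRNA:CR45973. For features that were not called, an equal size of change was not shown. Without ND-75 KDstrong replicate 4, the count was 23, and without control replicate 4 it was 6. In larger sets of shared features, 92 differed with DESeq2 (of 232 higher and 114 lower) and 96 with limma voom (of 151 and 170). With the 3-genotype contrast, where a difference between the knockdowns is not part of the spread, 140 differed (of 177 and 151). The share of all features that differed by DESeq2 or limma voom is not given here, so 92 and 96 cannot be set against edgeR's 11.3%. None of these counts is a result about the shared features.

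Genes with large changes in 1 knockdown were not called in the pooled test. *MFS3*, a transporter of the major facilitator superfamily, had 5.10, 4.42, 4.29 and 3.68 CPM in controls, 2.99, 5.57, 4.14 and 3.91 in ND-75 KDweak and 115, 102, 106 and 113 for ND-75 KDstrong. Its pooled log2 fold change of 3.70 (SE 1.16, adjusted p = 0.188) came from ND-75 KDstrong, in which it rose by 4.65, against -0.062 in ND-75 KDweak. *Ldh*, lactate dehydrogenase, which reoxidises cytosolic NADH, had 15.4, 27.4, 28.5 and 27.7 CPM in controls, 15.7, 101, 9.28 and 10.1 in ND-75 KDweak and 481, 406, 434 and 402 for ND-75 KDstrong (pooled log2 fold change 3.23, SE 1.10, adjusted p = 0.233). One ND-75 KDweak library, replicate 2, stood above all controls and the other 3 lay at or below most of them. *w*, the *white* gene carried as a marker by many transgenes, was at 51.9 to 97.4 CPM in controls, 413 to 498 in ND-75 KDweak and 62.1 to 84.4 for ND-75 KDstrong (pooled log2 fold change 1.99, adjusted p = 0.207). *y*, another marker gene, was at 0.602 to 3.38, 3.35 to 4.10 and 5.24 to 8.45 CPM (pooled log2 fold change 1.42, adjusted p = 0.122), and *v* had a pooled log2 fold change of -0.41 (adjusted p = 0.631).

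A set of 10 features was called in opposite directions by the own comparisons of the knockdowns. In the pooled test 0 of them were called by edgeR, DESeq2 or limma voom (0 at an unadjusted p under 0.05). Opposite changes offset each other and widen the spread of a pooled group, so this outcome was largely fixed in advance. In 8 of the 10, ND-75 KDweak was below control and ND-75 KDstrong above it. *Fbp1*, the fat body receptor of larval serum proteins, had 5.98, 9.16, 8.22 and 6.01 CPM in controls, 0.598, 0.525, 0.249 and 0.804 in ND-75 KDweak and 21.6, 49.6, 31.2 and 8.31 for ND-75 KDstrong (log2 fold changes -3.75 and 1.92). *Lsp1gamma*, a larval serum protein, changed by -3.05 and 1.83 on the log2 scale, *CG17298* by -5.11 and 2.19 and *CG8483* by -2.05 and 4.32. In the opposite way, *TotX*, a secreted stress peptide of the Turandot family, changed by 1.14 in ND-75 KDweak and -1.32 for ND-75 KDstrong, and *lectin-28C* by 0.82 and -1.21.

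**Figure D4:**
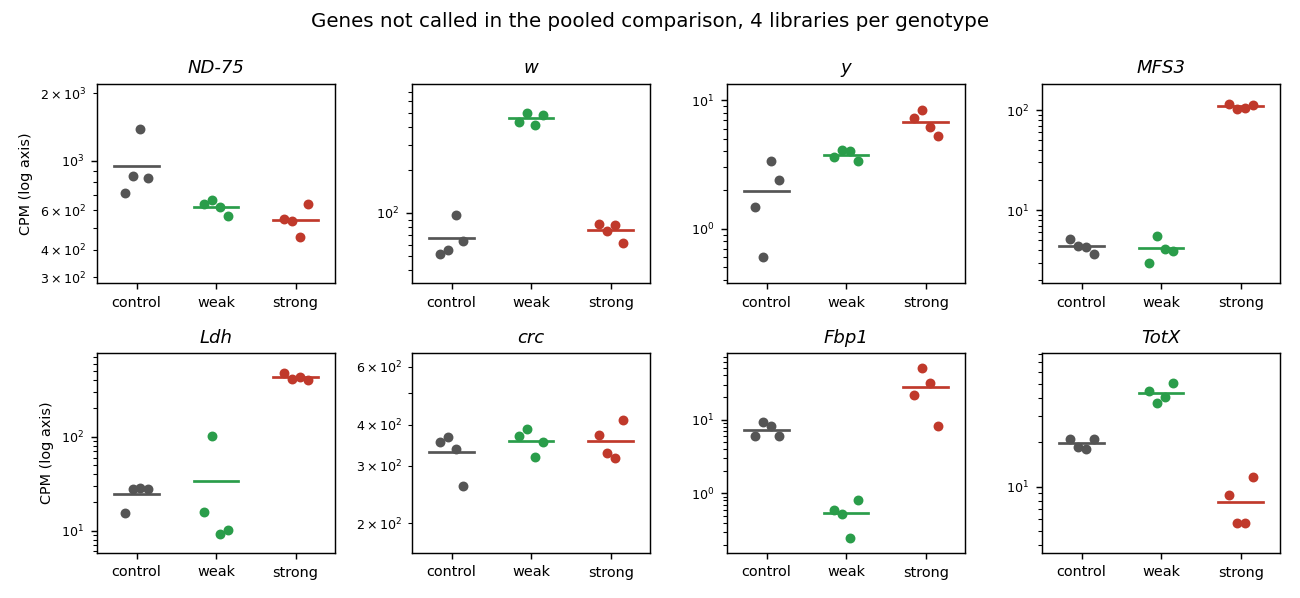
CPM in each library, on log axes, for 8 genes that were not called with both knockdowns pooled. Each point is 1 library and each bar the mean of 4. *MFS3* and *Ldh* are high in ND-75 KDstrong, *w* in ND-75 KDweak, *Fbp1* and *TotX* move in opposite directions in the knockdowns, and *ND-75* is lower in both.

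Most of the 30 gene lists examined held no shared feature. Of 31 nuclear subunits of complex I 0 were called by edgeR, and 8 were lower and 0 higher at an unadjusted p under 0.05. DESeq2, limma voom, the 3-genotype contrast and the edgeR fit without control replicate 1 each called 1 of the 31, *ND-75* itself, and removal of a gene length trend gave 2. Over the list the log2 fold change had a median of -0.26 (-0.27 in ND-75 KDweak and -0.26 for ND-75 KDstrong). Of the 13 subunits encoded in mitochondrial DNA and of 16 TCA cycle genes 0 were called by edgeR, DESeq2 or limma voom (1 and 2 at an unadjusted p under 0.05). Of 21 genes of glycolysis and sugar transport edgeR called 0 (4 unadjusted), DESeq2 3 and limma voom 1. Of 8 genes of the pentose phosphate pathway edgeR and DESeq2 called 0 and limma voom 1 (2 unadjusted), and of 18 genes of the ER unfolded protein response edgeR called 0 (5 unadjusted) and the other tools 1 each.

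Of 37 proteasome genes 0 were called by any of the 3 tools and 0 had an unadjusted p under 0.05. Their list medians lay apart, at -0.74 in ND-75 KDweak and 0.17 for ND-75 KDstrong. In the own comparison of ND-75 KDweak 26 of the 37 were called lower, and in that of ND-75 KDstrong 0 were called. For 35 of the 37 the knockdowns had opposite signs, so the pooled outcome was largely fixed in advance. In the pooled test the neuronal list of 16 genes, in whose cells the RNAi was expressed, had 0 calls by the 3 tools and 0 at an unadjusted p under 0.05. The lists of 10 glia genes and 16 muscle genes had 0 calls by the 3 tools (2 and 4 unadjusted), and that of 18 photoreceptor genes had 0 by edgeR and DESeq2 and 1 by limma voom (4 unadjusted).

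**Figure D5:**
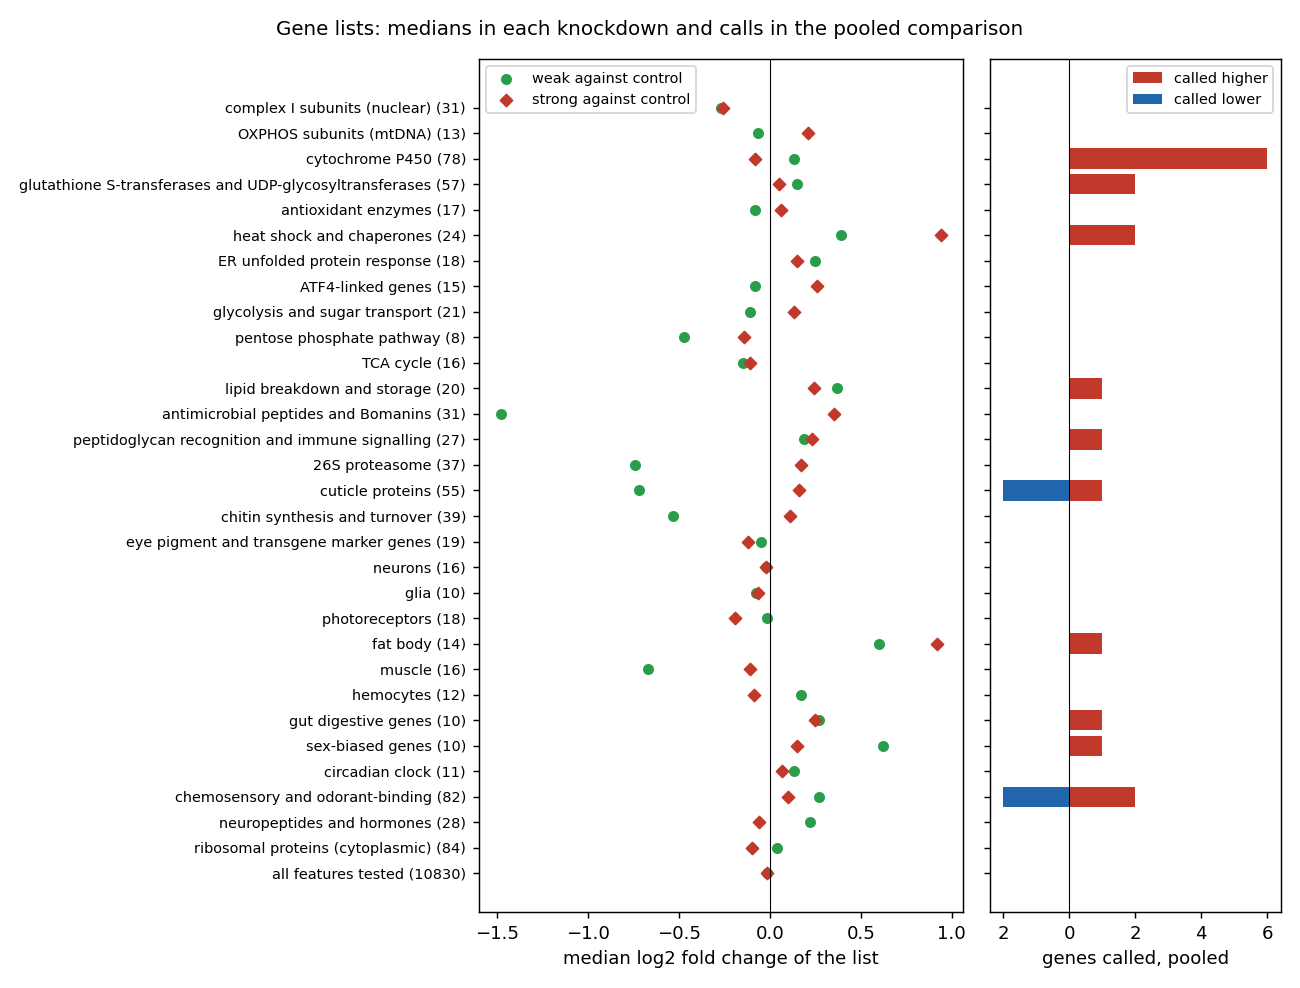
Left, median log2 fold change of each gene list against control in ND-75 KDweak (green circles) and ND-75 KDstrong (red diamonds), with the number of genes tested in brackets. Right, number of genes of each list called with both knockdowns pooled, higher to the right in red and lower to the left in blue. By these edgeR counts cytochrome P450 genes have the most calls (6 higher), and proteasome and antimicrobial peptide genes have medians of opposite sign in the knockdowns and no calls.

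A few shared features were called in neither knockdown on its own. These were *Aasdh*, *CG10553*, lncRNA:CR44854 and FBti0018969, the last of which the filter on low counts left untested in each own comparison. *Aasdh* stood at 18.1, 18.3, 16.4 and 18.1 CPM in controls, 10.9, 13.0, 13.1 and 13.9 in ND-75 KDweak and 13.0, 11.7, 14.4 and 11.6 for ND-75 KDstrong. The groups did not overlap, and the fall of 0.48 on the log2 scale (adjusted p = 0.0311) missed the threshold in each own comparison (adjusted p = 0.0553 and 0.125). Its call was lost when any 1 of 8 of the 12 libraries was omitted (adjusted p up to 0.133). *CG10553* fell from 106 ± 23.0 to 69.4 ± 7.32 CPM (log2 fold change -0.62, SE 0.13, adjusted p = 0.0336) and was likewise lost in 8 of 12 (up to 0.13).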

How the data were processed

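Heads of 3 genotypes were sequenced as 12 poly(A) RNA libraries. The authors trimmed reads with fastp, aligned them with HISAT2 and counted them per feature with featureCounts, and they tested them with DESeq2 (tools per the processing notes of the submitters, with version and build not given in the sources used here). Per the file headers the deposited tables hold raw read counts per gene, not normalized, and these counts were the only values used. The 48 columns of normalized counts and FPKM and the authors' columns of fold changes and p-values were not used. Feature positions match genome release 6 for 99.9% of 17530 identifiers. The 3 tables were joined by gene identifier into 17589 features, with 300 features absent from 2 of the tables set to 0 there and 0 counts that differed between tables. Symbols were matched for 14776 of 14835 gene identifiers.

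Features were kept by edgeR's filterByExpr (minimum count 10, minimum total 15), scaled by TMM and tested with the quasi-likelihood test of edgeR 4.0.16 (limma 3.58.1, R 4.3.3) with Benjamini-Hochberg adjustment over all features tested, 8 knockdown against 4 control libraries, with no covariate. Standard errors are on the log2 scale. Comparisons of 1 knockdown with control, and of the knockdowns with each other, were fitted on their own libraries. The sign in each knockdown came from a fit with the 3 genotypes as groups. The prior count for log2 CPM was 2, the floor for features at 0 was 3 reads, and ratios for features with 1 to 3 reads have exact 95% intervals, which cover counting error only. Tables and plots were made with Python 3.11.15, pandas 2.3.3, scipy 1.17.1 and matplotlib 3.10.9, and the fits were tested on simulated data. Alternatives were DESeq2 1.42.0, limma voom with quality weights, 2 other scalings, no filter, protein-coding genes only, a gene length trend, the 3-genotype contrast, a replicate block and leaving out libraries.

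The shared features and gene lists were chosen with earlier results of these data known. Genes named by rule were the 10 protein-coding genes of smallest p in each direction without overlap between groups, up to 3 called genes per list and direction, 4 insertions and 2 noncoding RNAs per direction, up to 4 genes per direction called in opposite directions or in neither own comparison, and *ND-75*, *crc*, *w*, *y*, *v*, *MFS3*, *Ldh*, *Cyp6a17* and the Hsp70 copies. Other shared features were named for their described role or position after their values were seen. The labels do not say whether the pools came from separate crosses, so p-values measure the spread between pools, which may be partly technical.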

Additional observations from a re-analysis of the deposited data

Results flagged for a closer look

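A library that stood apart from the other 3 of its genotype was found for 16 of the 192 gene and genotype pairs examined by Dixon's test, which chance alone gives for about 1 in 20. In 3 of the 16 the other libraries were at 0, where any read is set apart, so these say nothing. ND-75 KDweak replicate 2 accounted for 6. It was high for *Hsp70Bb* (51.0 CPM, next 12.8), *Hsp70Ab* (10.6, next 1.78), *Hsp70Aa* (2.52, next 0.419), *Hsp70Ba* (4.31, next 0.598) and *Ldh* (101, next 15.7), and low for lncRNA:CR46350 (0.42 CPM, next 0.552). Control replicate 3 was low for *Tep4* (150 CPM, next 231) and *Aasdh* (16.4, next 18.1). ND-75 KDstrong replicate 4 was high for *fit* (333 CPM, next 91.0) and *v* (85.4, next 40.8). ND-75 KDstrong replicate 1 was high for FBti0018871 (0.789 CPM, next 0.427) and for *CG34462* (0.117, the others at 0). Control replicate 1 was low for *Ldh* (15.4 CPM, next 27.4), ND-75 KDweak replicate 1 low for *Cpr49Af* (1.15, next 1.34), control replicate 4 high for lncRNA:CR46350 (0.0315, the others at 0) and ND-75 KDweak replicate 3 high for FBti0059664 (0.0623, the others at 0).

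The knockdowns themselves differed for 25 of the features examined, by edgeR's test of ND-75 KDstrong against ND-75 KDweak, which does not use the controls. The features examined were the 124 shared ones and the 64 genes named by rule, many of them in both sets. Of all features tested between the knockdowns, 11.3% differed. Some genes were named for their opposite directions in the knockdowns, so the count of 25 is no result about the features examined. Among shared features that were higher than control, the log2 difference (ND-75 KDstrong minus ND-75 KDweak) was 3.24 for *Hsp70Ab* (adjusted p = 0.0176), 1.66 for FBti0019110 (0.000368), 1.66 for hpRNA:CR32207 (0.00142), 1.43 for FBti0020031 (0.000354) and 1.26 for *Pepck2* (0.00053). It was -0.44 for *CG11961* (0.019), -0.64 for *Cyp6a17* (0.0186), -0.81 for *Cyp12a5* (0.00864) and -1.10 for *CG14329* (0.0128). Among those lower than control it was -1.64 for *phr* (0.000821), -1.36 for *CG17005* (0.00951), 0.86 for *Lcp65Ac* (0.016), 1.35 for *Obp99d* (0.0389) and 3.38 for lncRNA:CR45973 (0.00116).

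Among features that were not called with the knockdowns pooled, the log2 difference was 7.34 for *CG17298* (adjusted p = 0.000289), 6.4 for *CG8483* (0.00416), 5.69 for *Fbp1* (0.000306), 4.92 for *Lsp1gamma* (0.000306), 4.74 for *MFS3* (1.04e-06), 3.72 for *Hsp70Aa* (0.0179), 3.69 for *Ldh* (0.00993) and 0.87 for *y* (0.0108). It was -2.56 for *w* (7.35e-06), -2.44 for *TotX* (0.000169) and -2.01 for *lectin-28C* (0.000798). *CG17298*, *CG8483*, *Fbp1*, *Lsp1gamma*, *TotX* and *lectin-28C* were named for being called in opposite directions, so their differing was largely fixed in advance.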

How the results depend on the processing

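All 124 shared features that an alternative could test kept their direction in each of the 22 alternatives, and 46 of the 101 protein-coding genes were called in all of them. The other 23 features could be tested in up to 21 alternatives, and 11 were called in all 21. The number of calls moved with the test. DESeq2 gave 234 higher and 114 lower features, 232 and 114 of them in the same direction in both knockdowns, 92 that differed between the knockdowns and 152 called in both own comparisons. Of the lists, it called 10 cytochrome P450 genes (6 by edgeR), 9 heat shock genes (2), 5 lipid genes (1), 13 chemosensory genes (4) and 4 conjugating enzymes (2). For limma voom with quality weights the 6 counts over all features, in the same order, were 151 and 171, 151 and 170, 96 and 167. The mean contrast of the 3 genotypes gave 186 and 171, of which 177 and 151 were shared, and 140 that differed between the knockdowns. Protein-coding genes alone gave 8 that differed, removal of a gene length trend 115 higher (115 shared), and leaving out control replicate 3 with ND-75 KDweak replicate 2 gave 28 lower (28 shared) and 7 that differed. Leaving out 1 library at a time gave 46 to 78 higher, 30 to 53 lower (the same counts shared), 6 to 23 that differed and 50 to 81 called in both own comparisons. The lowest were without control replicate 4 (46 higher, 6 that differed, 50 called in both) and control replicate 3 (30 lower), and 23 differed without ND-75 KDstrong replicate 4. Causes were not tested.

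With a replicate block, 46 higher and 26 lower features were called (46 and 26 shared), 6 that differed and 35 called in both own comparisons, and 72 of the 124 were kept. Same-numbered libraries did not deviate together (correlations -0.425 to 0.125). These correlations cannot decide whether the numbers pair the samples, because libraries that stand apart from their genotype weigh heavily in them.

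The genes that changed sign were not called in any setting shown here. Under voom the values were -1.97 for *Fbp1*, -1.54 for *Lsp1gamma*, 0.031 for *v*, -0.066 for *CG8483* and -3.11 for *CG17298*. Under the 3-genotype contrast they were -0.92 for *Fbp1*, -0.62 for *Lsp1gamma*, -1.47 for *CG17298*, -0.20 for *lectin-28C* and -0.10 for *TotX*. *v* was 0.0073 without control replicate 3 (down to -0.60 without another library). *lectin-28C* was -1.2e-05 without ND-75 KDweak replicate 3, -0.043 without replicate 4, up to 0.28 without another library, and -0.064 when control replicate 3 and ND-75 KDweak replicate 2 were both left out. Few reads stand behind each value of the 23 shared features under 1 CPM.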
